A study of Homo sapiens with 12 samples.

Results

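Heat shock proteins and their co-chaperones were followed in RD cells, a line from an embryonal rhabdomyosarcoma. The list of 34 genes held HSP70, HSP110, HSP90 and small heat shock proteins, the mitochondrial and cytosolic chaperonins, J-domain and BAG proteins, HSP90 co-chaperones and heat shock factors, and was chosen by gene name. A gene was measured where a probe set of the array carried its symbol alone, and the probe set of highest mean signal stood for it. By this rule 28 of the 34 genes were found, among 11963 genes with such a probe set, and 27 of them passed the filter on low signal, among 8124 genes. HSPB2 did not pass. HSPA1A, HSPA1B, HSPA8 and TCP1 lay only on probe sets annotated to several genes, and HSF2 and AHSA1 were not analysed here.

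RNA was measured on 12 Affymetrix arrays, 3 in each of 4 groups. The groups were RD cells labelled PAX3-FKHR-ER with 30 nM 4-hydroxytamoxifen (4-OHT) for 24 h, PAX3-FKHR-ER without 4-OHT, pK1 with the same 4-OHT, and pK1 without 4-OHT. PAX3-FKHR-ER is the PAX3-FKHR fusion of alveolar rhabdomyosarcoma joined to an estrogen receptor hormone-binding domain, through which 4-OHT switches it on, and pK1 is the empty vector. All groups are of 1 cell line, and the promoter of the construct is not given in the sources used here. The design text counts 3 populations of cells per construct, but no label says that a replicate number is a population, so p-values measure only the spread between these samples, which may be technical.

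Heat shock proteins are molecular chaperones, which bind unfolded or unfinished proteins and help them reach or regain their shape. HSP70 and its J-domain partners take up chains, HSP110 and BAG proteins make HSP70 let go of nucleotide, HSP90 matures kinases and steroid receptors, and small heat shock proteins hold misfolded chains. In stressed cells the factor HSF1 binds heat shock elements, repeats of GAA and its complement TTC in alternate directions, and turns many of these genes on. Hormone-binding domains of steroid receptors, the kind of domain that the fusion construct carries, are known HSP90 clients. In muscle, CRYAB and HSPB7 are abundant and protect the contractile fibres.

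The heat shock element can be read in the promoters of several of these genes. The 250 bases upstream of each start in the RefSeq promoter table (GRCh38.p14) were searched on both strands for 3 adjoining units, GAANNTTCNNGAA. The table held windows for 30 of the 34 genes, and 6 of those genes had the motif, DNAJB6, HSP90AA1, HSP90AB1, HSPA6, HSPA8 and HSPD1. It lay in 6 of their 41 windows and in 0.441% of all 35116 windows. The pair GAANNTTC alone lay in 14 of the 41 and in 5.78% of all, and the pair TTCNNGAA in 6 of the 41 and in 6.62% of all. Both pairs overlap the 3-unit motif. A match is a description of the letters and does not show that HSF1 binds. The stretches around it are shown, with the motif in capitals, for the 5 genes that were measured, since they are the members in which the known control sequence is visible. Each runs 5′ to 3′ on the strand of its gene.
HSPA6, chr1:161524446-161524498, plus strand: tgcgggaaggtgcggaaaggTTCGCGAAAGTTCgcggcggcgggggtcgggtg
HSPD1, chr2:197500048-197500090, minus strand: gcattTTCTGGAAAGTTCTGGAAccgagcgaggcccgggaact
HSP90AB1, chr6:44247758-44247863, plus strand: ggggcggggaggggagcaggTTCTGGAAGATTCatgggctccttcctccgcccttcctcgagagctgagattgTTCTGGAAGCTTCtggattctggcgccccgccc
DNAJB6, chr7:157336853-157336905, plus strand: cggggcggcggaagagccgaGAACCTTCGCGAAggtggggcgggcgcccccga
HSP90AA1, chr14:102087100-102087152, minus strand: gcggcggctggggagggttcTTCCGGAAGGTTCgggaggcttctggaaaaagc
HSP90AB1 holds the motif at 2 places, and in HSPD1 the run goes on for a further unit. HSPD1 and HSPE1, the barrel and the lid of the mitochondrial chaperonin, lie head to head, with the start of HSPE1 105 and 539 bases from the starts of HSPD1 in the table.

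Replicate 1 stood apart. Its 4 arrays had a median signal of 2.58 to 7.41 over the 24 poly-A spike-in probe sets, against 118 to 291 on the 8 arrays of replicates 2 and 3. Pearson r of log2 signals over all tested probe sets was 0.957 to 0.982 among the replicate 1 arrays and 0.815 to 0.869 between them and the others. The construct check was unclear there too: on the replicate 1 arrays PAX3 read 58.9 with 4-OHT and 17.6 without it under the fusion label, against 57.8 and 49.4 under pK1. In replicates 2 and 3 PAX3 read 73.1 to 105 under the fusion label, against 30.6 to 49.96 under pK1. Groups are therefore given by their labels, and each pair of replicates is shown by itself. The part of this split in the results was not tested. The pK1 array with 4-OHT of replicate 2 differed in RNA quality, with a 3′ to 5′ signal ratio of 1.62 for ACTB, against 0.833 to 1.05 on the other 11 arrays, and the highest ratio for GAPDH, at 1.17. The muscle markers MYOD1 (197 to 2098) and DES (85.6 to 862) were read on every array, 6 of 9 muscle markers passed the filter, and 0 of 4 epithelial ones did. Markers of fibroblasts passed in 4 of 4 cases, of endothelium in 2 of 3 and of blood in 1 of 3. In bulk RNA, fewer cells of a type and less RNA per cell cannot be told apart.

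Several chaperones showed the same split, as many other genes did. HSPH1, an HSP110 that recharges HSP70, had signals of 1686, 1901, 2166 and 1529 in replicate 1, in the group order above, and 424 to 843 on the 8 other arrays. FKBP4, the HSP90 co-chaperone FKBP52 of steroid receptor complexes, read 1881, 1924, 1964 and 1601 in replicate 1 and 649.7 to 896 elsewhere. The replicate 1 arrays thus lay wholly above the others for both genes, by 1.73 (HSPH1) and 1.24 (FKBP4) on the log2 scale, and by 2.16 and 1.27 on each gene's other tested probe set. BAG1 and BAG2, which bind HSP70 and steer its cycle, lay wholly below, with differences of -0.99 and -0.98. Altogether 4 of 27 members (HSPA2, HSPH1, DNAJB1 and FKBP4) lay wholly above, where 10.8% of all genes did, and 2 of 27 (BAG1 and BAG2) wholly below, where 11% did. For all 27 members the widest range within a group exceeded the range of the 4 group means. Means vary less than single arrays, and every group holds a replicate 1 array, so this outcome is likely without any group effect. No share over all genes is given, and nothing is concluded from it about the members.

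**Figure D1:**
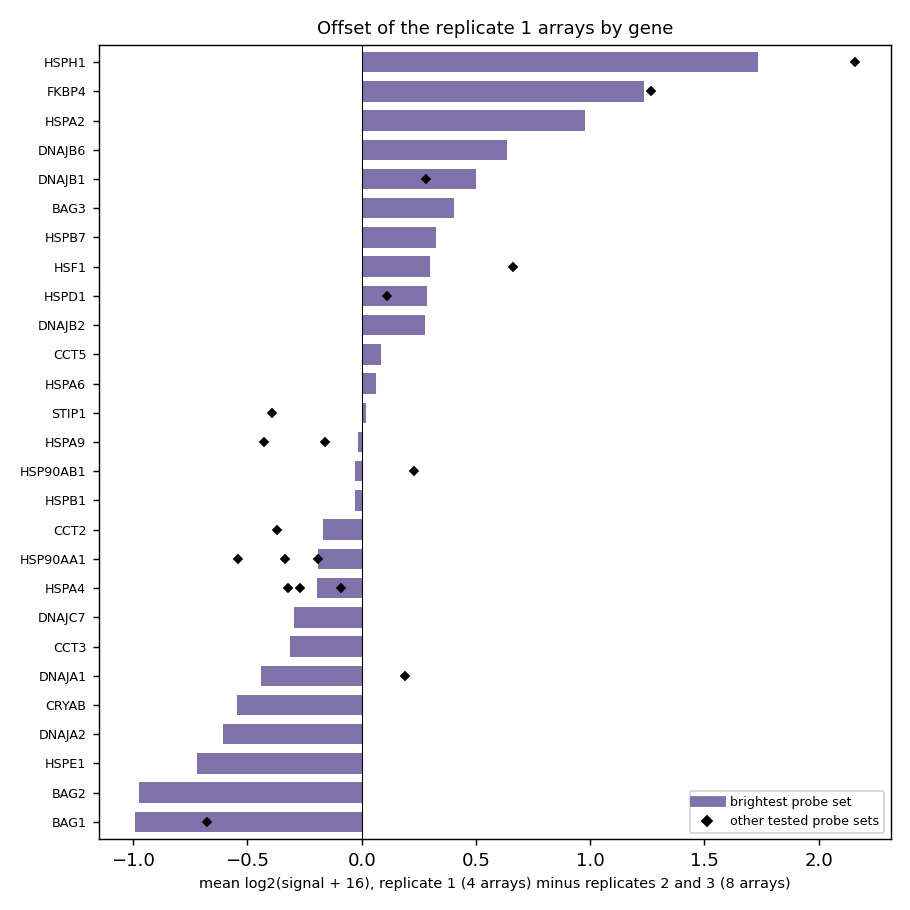
Mean log2(signal + 16) on the 4 replicate 1 arrays minus that on the 8 arrays of replicates 2 and 3, for the 27 members that passed the filter. Bars are the brightest probe set of each gene and diamonds its other tested probe sets. HSPH1 and FKBP4 stand out at 1.73 and 1.24, and BAG1 and BAG2 at the other end at -0.99 and -0.98.

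**Figure D2:**
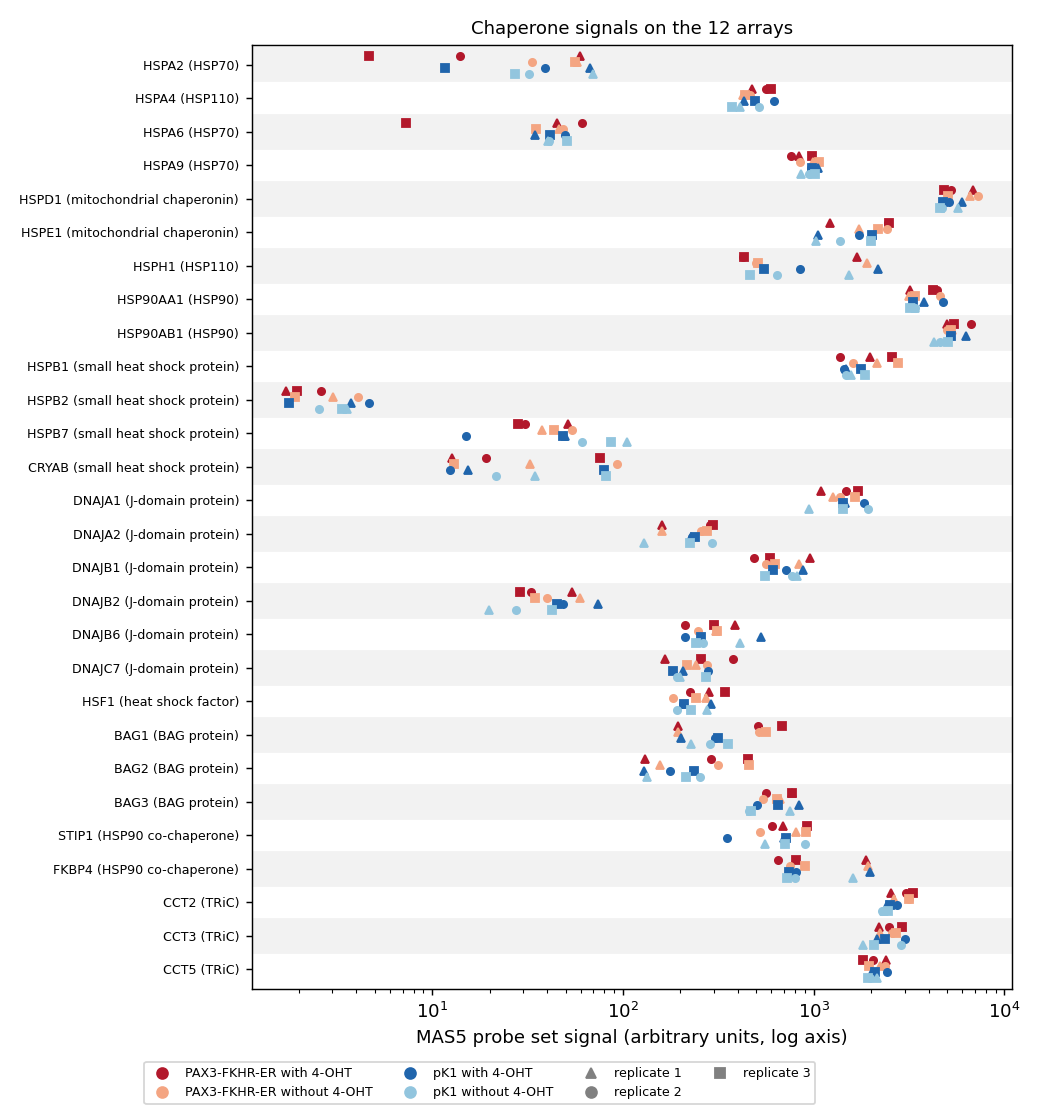
Deposited signal (arbitrary units, log axis) of the 28 members on each array, coloured by group, with the replicate number as the symbol. Signals of different probe sets cannot be set against each other. For each of the 27 tested members the widest range within a group exceeds the range of the group means, with no share over all genes given. This is likely without any group effect, since means vary less than single arrays. HSPB2 reads at most 4.66 on every array.

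4-OHT in cells labelled PAX3-FKHR-ER asks what switching the fusion on does. No member passed the threshold. Fits with limma to log2(signal + 16), with p-values adjusted over all 13329 probe sets, called 0 of 27 members, where 0% of probe sets were called, and the smallest adjusted p of a member was 1.00. At an unadjusted p under 0.05 there were 0 of 27 members, against 0.455% of genes, and with the replicate as a block 2 of 27 (HSPA2 and HSPA4), against 6.82%. Replicates 2 and 3 alone with the block called 0 of 27 members and 1.4% of probe sets. The median log2 change of the members was -0.04, with 11 positive and 16 negative, and over all genes it was -0.02. In replicates 2 and 3 the members' median was 0.011, with 14 positive and 13 negative. Only HSPA4 had groups that did not overlap, being higher with 4-OHT as 1.5% of genes were (0 members were lower, 1.77% of genes). All 3 pairs were positive for 3 members (HSPA4, HSF1 and BAG3; 12.8% of genes) and negative for 6 (HSPA9, HSPH1, HSPB1, DNAJB2, BAG2 and FKBP4; 15.6% of genes). These counts rest on the brightest probe set of each gene. Other tested probe sets gave 0.09 for HSPH1 and 0.06 for FKBP4, each with 2 of 3 pairs positive. Those of HSPA9 gave -0.01, with 1 of 3 pairs positive, and -0.30, with 0 of 3.

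Signals are given below in the order of replicates 1, 2 and 3, and an error after ± is the SE of the fit (n = 3 in each group). HSPA4, an HSP110 nucleotide exchange factor, had signals of 478, 565 and 599.9 in PAX3-FKHR-ER cells with 4-OHT and 425, 461 and 436 in those without it. Every array with 4-OHT lay above every array without. The log2 change was 0.30 ± 0.20 (SE, n = 3 each), but no other tested probe set of the gene showed this rise. They gave -0.08, with 0 of 3 pairs positive, 0.02 and 0.03. In pK1 cells the brightest probe set read 432, 616 and 491 with 4-OHT and 412, 515 and 373 without, and the groups overlapped, with a log2 change of 0.23 ± 0.20. The other tested probe sets gave 0.36, -0.12 and -0.13 there.

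HSF1, the master factor of the heat shock response, read 284, 224 and 344 in PAX3-FKHR-ER cells with 4-OHT and 272, 182 and 242 in those without it. The groups overlapped, although each pair was higher with 4-OHT, by 0.06, 0.28 and 0.48 on the log2 scale. In pK1 cells it read 289, 205 and 208 with 4-OHT and 275, 193 and 227 without. The changes of 0.27 ± 0.24 in PAX3-FKHR-ER cells and 0.01 ± 0.24 in pK1 cells differed by 0.26 ± 0.34 (adjusted p 1.00, limma interaction). A second HSF1 probe set gave 0.43 in PAX3-FKHR-ER cells and -0.12 in pK1 cells, with a difference of 0.55 that was positive in all 3 pairs.

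Among the HSP70 proteins, HSPA2, which is best known from the testis, read 59.7, 14.1 and 4.69 in PAX3-FKHR-ER cells with 4-OHT and 57.3, 33.2 and 55.8 in those without it. Its log2 change of -0.82 ± 0.52 came from replicates 2 and 3, at -0.71 and -1.80, while replicate 1 gave 0.05. At these low signals the size depended on the pseudocount, with -1.48 for a pseudocount of 1 and -0.36 for 64, and the gene was not tested with the 60% filter. In pK1 cells it read 67.5, 39.02 and 11.7 with 4-OHT and 69.8, 32.4 and 27.2 without, and the lowest value of either construct was replicate 3 with 4-OHT. HSPA9, the mitochondrial HSP70, read 833, 756 and 974 in PAX3-FKHR-ER cells with 4-OHT and 986, 847 and 1059.9 in those without it, a change of -0.17 ± 0.17 with overlapping groups. In pK1 cells HSPA9 read 1051, 971 and 974 with 4-OHT and 857, 949.7 and 1011 without. HSPA6, a strictly stress-induced HSP70 in human cells and 1 of the motif genes above, stayed between 34.7 and 60.9 on 11 arrays, and read 7.29 on PAX3-FKHR-ER with 4-OHT replicate 3.

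The mitochondrial chaperonin HSPD1 (HSP60) read 6811, 5227 and 4846 in PAX3-FKHR-ER cells with 4-OHT and 6619, 7252 and 5049 in those without it. The change of -0.16 ± 0.18 rested on replicate 2, at -0.47, with 0.04 and -0.06 in the others. Its partner HSPE1 (HSP10) read 1218, 2453 and 2488 with 4-OHT and 1738, 2421 and 2167 without, with pairs of -0.51, 0.02 and 0.20. The signs of the 2 genes differed in each of these PAX3-FKHR-ER pairs.

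4-OHT in cells labelled pK1 is the control for the drug itself, and here most members had positive mean changes. The median log2 change was 0.09, with 19 of 27 members positive, against -0.03 over all genes. All 3 pairs were positive for 11 of 27 members (40.7%), namely HSPA4, HSPD1, HSPE1, HSPH1, HSP90AA1, HSP90AB1, DNAJB2, BAG3, FKBP4, CCT2 and CCT3, against 12.7% of genes and 14% of 50 further chaperone genes. All 3 were negative for 3 members, HSPB1, HSPB7 and CRYAB, against 17.7% of genes. These counts carry no test, and the median of the members was -0.01 without replicate 1, 0.042 with quantile scaling and 0.19 with equal array medians. They also rest on the brightest probe set of each gene. Among the 11 members, other tested probe sets gave -0.16 for CCT2, -0.06 for FKBP4 and -0.03 for HSPD1. Those of HSPH1 and HSP90AB1 gave 0.0006 and 0.06, each with 1 of 3 pairs positive. Those of HSPA4 gave 0.36, -0.12 and -0.13, and those of HSP90AA1 0.19 to 0.35. No member passed the threshold (0 of 27, 0% of probe sets, smallest adjusted p 1.00). At an unadjusted p under 0.05 there were 2 of 27, HSPB7 and DNAJB2, against 0.517% of genes, and with the block 4 of 27, HSPH1 and BAG3 in addition, against 6.84%.

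HSPB7, a small heat shock protein of heart and skeletal muscle, had the smallest unadjusted p. Its signals were 49.6, 15.1 and 48.4 in pK1 cells with 4-OHT and 105, 61.2 and 86.9 in those without it. Every array with 4-OHT lay below every array without, as for 3.52% of genes. The log2 change was -0.96 ± 0.33 (SE, n = 3 each; unadjusted p = 0.0133, adjusted p 1.00, limma), with pairs of -0.88, -1.31 and -0.67. In replicates 2 and 3 alone it was -0.99. The lowest signal, 15.1, was that of the pK1 array with 4-OHT of replicate 2, whose 3′ to 5′ ratios stood apart, and without that array the change was -0.60. With a pseudocount of 1 it was -1.28 and with 64 it was -0.55. In PAX3-FKHR-ER cells HSPB7 read 51.5, 30.6 and 28.2 with 4-OHT and 37.9, 54.01 and 43.4 without, a change of -0.23 ± 0.33. The difference of the changes was 0.73 ± 0.46 and positive in all 3 pairs, at an unadjusted p of 0.143.

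CRYAB, αB-crystallin, which guards desmin filaments in muscle, read 15.4, 12.4 and 79.5 in pK1 cells with 4-OHT and 34.7, 21.5 and 81.6 in those without it. In PAX3-FKHR-ER cells it read 12.7, 19.2 and 76.2 with 4-OHT and 32.7, 93.5 and 13.1 without. High and low arrays occurred in every group, and the changes of -0.25 ± 0.64 in PAX3-FKHR-ER cells and -0.38 ± 0.64 in pK1 cells were smaller than their errors. HSPB1 (HSP27), the widespread small heat shock protein, read 1967, 1368 and 2586 in PAX3-FKHR-ER cells with 4-OHT, against 2139.8, 1609 and 2783 without. In pK1 cells HSPB1 read 1472, 1442 and 1766 with 4-OHT, against 1570.3, 1481 and 1861 without. All 6 pairs of HSPB1 were negative, but at -0.23 to -0.04 on the log2 scale. HSPB2, which lies beside CRYAB in the genome, read 1.72, 2.6 and 1.95 in PAX3-FKHR-ER cells with 4-OHT and 3.03, 4.07 and 1.92 in those without it. It read 3.73, 4.66 and 1.78 in pK1 cells with 4-OHT and 3.56, 2.54 and 3.38 in those without it, under the filter of 36.7 on every array.

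DNAJB2, a J-domain protein that hands HSP70 clients to the proteasome, read 73.6, 48.7 and 45.3 in pK1 cells with 4-OHT and 19.8, 27.6 and 42.6 in those without it. The groups did not overlap (0.886% of genes were higher in this way), and the change was 0.65 ± 0.29 (unadjusted p = 0.0465, adjusted p 1.00, limma). Its size varied over the pairs, at 1.32, 0.57 and 0.06 in replicates 1, 2 and 3, and it was 0.32 in replicates 2 and 3 alone. With a pseudocount of 64 it was 0.35. In PAX3-FKHR-ER cells it read 54.4, 32.8 and 28.9 with 4-OHT and 59.7, 39.97 and 34.5 without, a change of -0.16 ± 0.29. Of the other J-domain proteins, which bring clients to HSP70, DNAJA1 read 939.8 to 1923, DNAJA2 129 to 296, DNAJB6 210.3 to 532 and DNAJC7 166 to 378 over the 12 arrays. None of these brightest probe sets had pairs of 1 sign in either construct. A second tested DNAJA1 probe set gave -0.16 with 4-OHT in PAX3-FKHR-ER cells, with 0 of 3 pairs positive.

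On their brightest probe sets the cytosolic HSP90 genes were higher with 4-OHT in every pK1 pair. HSP90AB1, the constitutive form, read 6310.0, 5212 and 5223 in pK1 cells with 4-OHT and 4283, 4598 and 5037 in those without it, with no overlap and a change of 0.26 ± 0.14. HSP90AA1, the inducible form, read 3800.2, 4766 and 3321 with 4-OHT and 3379.8, 3401 and 3185 without, a change of 0.24 ± 0.19. All 4 tested probe sets of HSP90AA1 had positive mean changes in this comparison, at 0.19 to 0.35, but the one at 0.19 had 2 of 3 pairs positive. The second one of HSP90AB1 gave 0.06 with 1 of 3 pairs positive. In PAX3-FKHR-ER cells HSP90AB1 read 4995, 6698 and 5417 with 4-OHT and 5288, 4982 and 5219 without, and HSP90AA1 3214, 4412 and 4234 with and 3175, 4602 and 3412 without. Those groups overlapped, with changes of 0.13 ± 0.14 and 0.09 ± 0.19. STIP1 (HOP), which bridges HSP70 to HSP90, read 701, 353 and 712 in pK1 cells with 4-OHT and 556, 896 and 709.6 in those without it. Its change of -0.32 ± 0.32 was that of replicate 2, at -1.31, and without the pK1 array with 4-OHT of replicate 2 it was -0.0015. A second STIP1 probe set gave 0.18. In PAX3-FKHR-ER cells STIP1 read 694, 606 and 927 with 4-OHT and 807, 520.2 and 912 without, a change of 0.01.

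**Figure D3:**
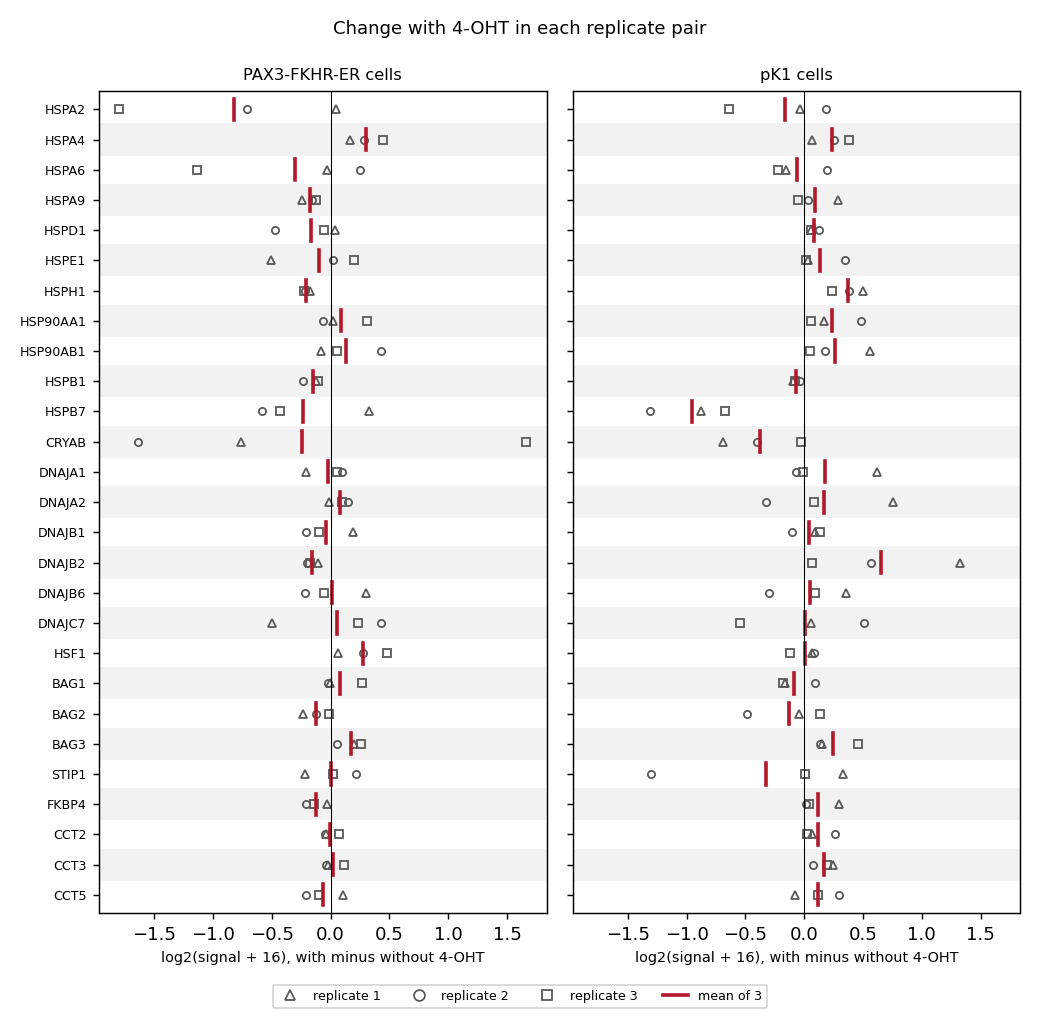
Change in log2(signal + 16), with minus without 4-OHT, of the 27 tested members, for cells labelled PAX3-FKHR-ER (left) and pK1 (right). Symbols are the 3 replicate pairs and the red line their mean. HSPB7 lies left of 0 in each pK1 pair, with a mean of -0.96, and HSP90AA1 and HSP90AB1 lie right of 0 in each, at 0.24 and 0.26.

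The difference of the 4-OHT changes, PAX3-FKHR-ER minus pK1, asks whether the drug acted differently through the fusion. It shares its arrays with both comparisons above. Again 0 of 27 members passed (0% of probe sets, smallest adjusted p 1.00), and 0 of 27 had an unadjusted p under 0.05 (0.258% of genes). With the block 3 of 27 did (HSPH1, HSPB7 and DNAJB2), against 4.44%, and replicates 2 and 3 with the block called 0 of 27 members and 0.0525% of probe sets. The median was -0.12, with 8 positive and 19 negative, against 0.01 over all genes. It was -0.051 with quantile scaling and -0.20 with equal array medians, and in replicates 2 and 3 it was -0.09, with 11 positive and 16 negative. All 3 pairs were negative for 7 members (HSPA9, HSPD1, HSPH1, HSPB1, DNAJB2, FKBP4 and CCT3; 11.6% of genes) and positive for HSPA4 and HSPB7 (12.8% of genes). Another tested HSPA4 probe set gave -0.44 with 0 of 3 pairs positive, and the remaining ones gave 0.14 and 0.15. The other tested HSPA9 probe sets gave 0.15, with 2 of 3 pairs positive, and -0.32, and that of HSPD1 gave -0.05. HSPH1 read 1686, 424 and 433 in PAX3-FKHR-ER cells with 4-OHT and 1901, 497 and 508 in those without it. In pK1 cells it read 2166, 843 and 546 with 4-OHT and 1529, 642 and 461 without. Each PAX3-FKHR-ER pair was thus lower with 4-OHT and each pK1 pair higher, and the pairs of the difference were -0.67, -0.60 and -0.46. With the replicate as a block the SE was 0.14, in place of 1.01, with an unadjusted p of 0.00181 and an adjusted p of 0.926. A second HSPH1 probe set gave 0.09 with 2 of 3 pairs positive, so it did not show the pattern of the first.

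**Figure D4:**
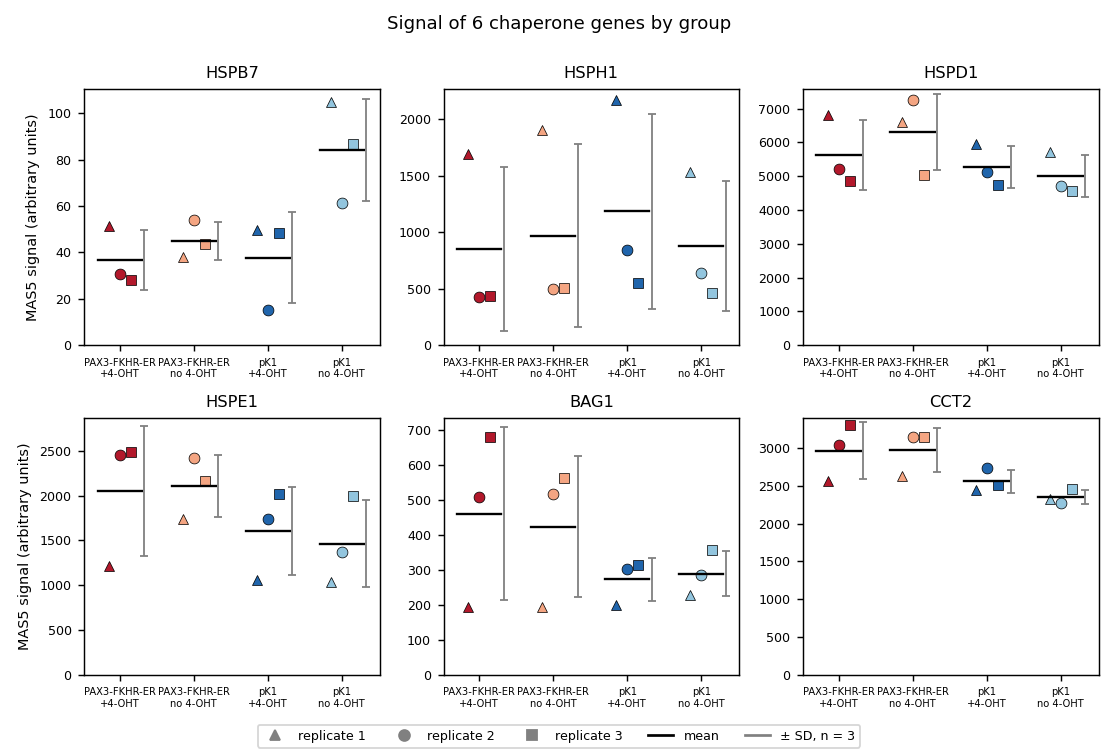
Signal of 6 members in each array (symbol, replicate number), with the mean (black line) and SD (grey bar, n = 3) of each group. HSPB7 is highest in pK1 without 4-OHT, at 61.2 to 105, HSPH1 splits by replicate 1, and CCT2 lies higher under the PAX3-FKHR-ER label.

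Constructs were set against each other without 4-OHT, which asks what the fusion construct does before it is switched on. Most members had higher means in cells labelled PAX3-FKHR-ER, with 21 of 27 positive and a median log2 difference of 0.14, against -0.02 over all genes. No member passed (0 of 27, 0% of probe sets, smallest adjusted p 1.00), and CCT2 alone had an unadjusted p under 0.05, against 2.08% of genes. With the block 6 of 27 did (HSPD1, HSPE1, HSPB1, HSPB7, BAG2 and CCT2), against 7.37%, and replicates 2 and 3 called 0 of 27 members and 0.0075% of probe sets, with the block or without it. All 3 pairs were positive for 7 members (HSPD1, HSPE1, HSP90AB1, HSPB1, BAG2, CCT2 and CCT5; 25.9%), against 11.4% of genes and 16% of the 50 further chaperone genes. They were negative for HSPB7 alone, against 14.7% of genes. A second tested HSP90AB1 probe set gave -0.15, with 1 of 3 pairs positive. The members' median by pair was 0.20, 0.12 and 0.18, and with quantile scaling their median was 0.032.

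CCT2, a subunit of the cytosolic chaperonin TRiC, which folds actin and tubulin, read 2633, 3142 and 3141 in PAX3-FKHR-ER cells without 4-OHT and 2328, 2275 and 2459.6 in pK1 cells without it. Every array labelled PAX3-FKHR-ER lay above every pK1 array, as for 2.62% of genes. The difference was 0.33 ± 0.15 (unadjusted p = 0.0445, adjusted p 1.00, limma), and a second probe set gave 0.11 with 2 of 3 pairs positive. With 4-OHT, CCT2 read 2557, 3039 and 3296 in PAX3-FKHR-ER cells and 2437, 2728 and 2502 in pK1 cells, and the difference was 0.21 ± 0.15. The sister subunits CCT3 and CCT5 differed by 0.17 ± 0.20 and 0.11 ± 0.16 without 4-OHT, with overlapping groups, and read 1812 to 3015 and 1816 to 2420.3 over the 12 arrays.

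HSPD1 and HSPE1 were both higher in each pair labelled PAX3-FKHR-ER without 4-OHT. HSPD1 read 6619, 7252 and 5049 in those cells and 5727, 4709 and 4578 in pK1 cells without 4-OHT. HSPE1 read 1738, 2421 and 2167 in PAX3-FKHR-ER cells and 1033, 1367 and 1996 in pK1 cells. The differences were 0.32 ± 0.18 for HSPD1 and 0.56 ± 0.34 for HSPE1, and both groups overlapped. With 4-OHT HSPD1 read 6811, 5227 and 4846 in PAX3-FKHR-ER cells and 5968, 5129 and 4755 in pK1 cells. HSPE1 with 4-OHT read 1218, 2453 and 2488 in PAX3-FKHR-ER cells and 1058, 1737 and 2018 in pK1 cells. Each pair was again higher under the fusion label, with mean differences of 0.08 ± 0.18 for HSPD1 and 0.33 ± 0.34 for HSPE1, but for HSPD1 by 0.03 in replicates 2 and 3. The second HSPD1 probe set gave 0.13 with 3 of 3 pairs positive without 4-OHT, and 0.08 with 1 of 3 pairs positive with 4-OHT. HSPB7 ran the other way without 4-OHT: all 3 arrays labelled PAX3-FKHR-ER lay below all pK1 arrays (3.35% of genes), with a difference of -0.70 ± 0.33. That comparison shares the pK1 arrays without 4-OHT with the HSPB7 change above. DNAJB1, the classic HSP40 partner of HSP70, read 835, 563 and 629.7 in PAX3-FKHR-ER cells without 4-OHT and 820.4, 774 and 555 in pK1 cells without it. With 4-OHT it read 954, 486 and 589 in PAX3-FKHR-ER cells and 877, 719 and 609 in pK1 cells, and neither comparison gave pairs of 1 sign.

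Constructs were also compared with 4-OHT in both, where the median difference of the members was 0.03, against -0.0012 over all genes, with 16 of 27 positive. It was 0.10 with 18 of 27 positive in replicates 2 and 3, -0.0019 with quantile scaling and -0.011 with equal array medians. No group of a member lay wholly apart from the other (2.95% of genes were wholly higher and 2.2% wholly lower). Again 0 of 27 passed (0% of probe sets, smallest adjusted p 1.00), and 0 of 27 had an unadjusted p under 0.05 (1.88% of genes). With the block 3 of 27 did (HSPH1, BAG1 and BAG2), against 6.83%. Replicates 2 and 3 called 0 of 27 members, and 0.158% of probe sets with the block or 0.0975% without it. All 3 pairs were positive for HSPD1, HSPE1, BAG2 and CCT2 (11.4% of genes) and negative for HSPA2, HSPH1 and DNAJB2 (10.7% of genes). BAG1 read 194, 509.5 and 682 in PAX3-FKHR-ER cells and 201, 304 and 313 in pK1 cells, both with 4-OHT. In replicates 2 and 3 it was higher under the fusion label, by 0.71 and 1.08, while replicate 1 gave -0.05. Without 4-OHT BAG1 read 194, 517 and 562 in PAX3-FKHR-ER cells and 227, 285 and 357 in pK1 cells, with the same split. The difference with 4-OHT was 0.58 ± 0.47 over 12 arrays and 0.90 ± 0.19 in replicates 2 and 3 with the replicate block (adjusted p = 0.151, limma), the smallest adjusted p of any member in these fits. BAG2, a BAG protein that inhibits the ubiquitin ligase CHIP, read 131, 288 and 453 in PAX3-FKHR-ER cells with 4-OHT and 128, 176 and 237 in pK1 cells with it. Without 4-OHT it read 157, 315 and 458 in PAX3-FKHR-ER cells and 133.1, 252 and 214 in pK1 cells, and its difference was 0.53 with and 0.52 without 4-OHT. BAG3, which directs damaged muscle proteins to autophagy, read 458 to 841 over the 12 arrays and differed by 0.09 with and 0.16 without 4-OHT.

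**Figure D5:**
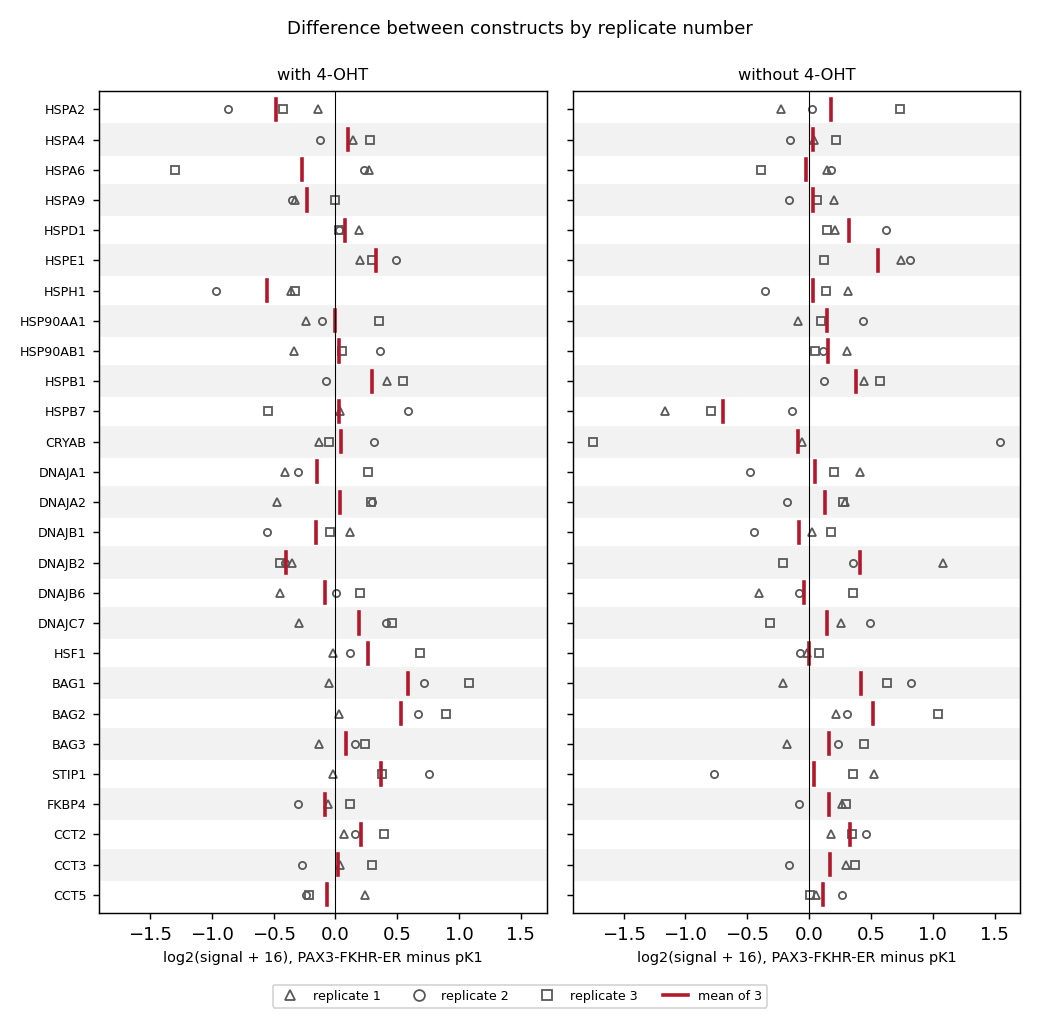
Difference in log2(signal + 16), PAX3-FKHR-ER minus pK1, of the 27 tested members, with 4-OHT (left) and without it (right). Symbols are the 3 replicate numbers and the red line their mean. Without 4-OHT 21 of 27 means lie right of 0, with HSPE1 at 0.56 and CCT2 at 0.33, and with 4-OHT 16 do.

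Members with and without the motif had similar medians. The 5 measured genes with the 3-unit element had a median change of 0.01 with 4-OHT in PAX3-FKHR-ER cells and 0.08 in pK1 cells. The 19 tested members with a promoter window and no such element had -0.04 and 0.11 in those comparisons. Between constructs without 4-OHT the medians were 0.15 with the element and 0.14 without. With 4-OHT they were -0.0009 and 0.04, and for the difference of the 4-OHT changes -0.15 and -0.09. HSPE1 counted as without the element, since the HSPD1 element lies upstream of its start but beyond the 250 bases searched. Of 57 further chaperone genes written down as a second list, 50 were tested and 0 passed in each of the 5 comparisons. Their medians lay between -0.05 and -0.00, and 25 of 50 were positive with 4-OHT in pK1 cells and 22 of 50 between constructs without 4-OHT. Several probe sets of a member often differed in sign: of 13 members with more than 1 tested probe set, all had 1 sign in 8 for 4-OHT in PAX3-FKHR-ER cells, 5 for 4-OHT in pK1 cells and 9 for constructs without 4-OHT.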

How the data were processed

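Probe set signals (linear intensity) were deposited by the authors. GCOS and MAS5 produced them, as the submitters' processing notes state with no version. Of 22283 probe sets, 68 controls were left out; of the rest 19065 had 1 gene symbol in the array annotation, 1043 several and 2107 none. RefSeq (GRCh38.p14) altered 0 symbols. Signals were tested as log2(signal + 16), which understates changes of dim genes, without rescaling, after dropping the dimmest 40% (mean under 36.7). The limma package (3.58.1, R 4.3.3; lmFit, eBayes with trend) fitted the 4 group means to the 12 arrays. Its 5 contrasts, which share arrays, were tested two-sided, with Benjamini-Hochberg adjustment over 13329 probe sets and a threshold of 0.05. Scripts were tested on simulated data. Plots came from matplotlib 3.10.9 (Python 3.11.15). Array medians were 50.4 to 62.8, and the number of arrays limits the precision.

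Every member is named. Values of every array are given for a fixed set of members and for the 3 of each sign with the smallest p in each contrast. HSPH1, BAG2 and FKBP4 are described beyond this rule, after their values were seen. The members and lists were chosen with earlier results of these data known. Deviations from group means were correlated between arrays of the same number, at 0.70 to 0.85 for 4-OHT in PAX3-FKHR-ER cells, 0.79 to 0.82 in pK1 cells, 0.15 to 0.69 between constructs without 4-OHT and 0.18 to 0.57 with it. All exceed 0.1, the limit set for treating the numbers as pairs, and a blocked fit was therefore run beside the main one. Other alternatives were the pseudocount, the filter, the scaling, the trend, the groups fitted, the omission of each array and replicates 2 and 3 alone.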

Additional observations from a re-analysis of the deposited data

Results flagged for a closer look

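There were 3 members whose signals moved in opposite directions with 4-OHT in every pair of the constructs, lower in cells labelled PAX3-FKHR-ER and higher in pK1 cells. The difference, PAX3-FKHR-ER minus pK1 on the log2 scale, was -0.58 for HSPH1, -0.81 for DNAJB2 and -0.24 for FKBP4. Such opposite pairs were found in 3 of 27 members (11.1%) and in 242 of 8124 genes (2.98%). The 3 were picked from these data by sign alone, whatever the size of a step, and some steps were small. FKBP4 pairs were -0.03, -0.20 and -0.14 in PAX3-FKHR-ER cells and 0.29, 0.015 and 0.037 in pK1 cells. For DNAJB2 the replicate 3 pair in pK1 cells was 0.06. The interaction term, tested with limma, had an adjusted p of 1.00 for each. Second probe sets of HSPH1 and FKBP4 gave 0.09 and 0.12 for this difference, so the sign was turned there.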

How the results depend on the processing

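No member passed the threshold in any of the 5 comparisons under any setting that was run, and with 1 array left out the smallest adjusted p of a member was 0.896. With the replicate block the fit to 12 arrays called 0 probe sets in each comparison, as it did without the block. Replicates 2 and 3 alone called 0 probe sets for 4-OHT in either construct and for the difference of the changes, 1 between constructs without 4-OHT and 13 with it. With the block as well they called 186 for 4-OHT in PAX3-FKHR-ER cells, 7 for the difference, 1 without 4-OHT and 21 with it, 0 of them members; that fit has 2 residual degrees of freedom for 4-OHT. The members' median log2 change moved as follows. For 4-OHT in PAX3-FKHR-ER cells it was 0.011 in replicates 2 and 3. For 4-OHT in pK1 cells it was 0.042 with quantile scaling, 0.19 with equal medians, -0.011 in replicates 2 and 3 and 0.024 with the mean over probe sets. The difference was -0.051 with quantile scaling, -0.20 with equal medians and -0.078 with the mean over probe sets. Between constructs without 4-OHT it was 0.032 with quantile scaling and 0.085 in replicates 2 and 3. Between constructs with 4-OHT it was 0.10 in replicates 2 and 3, -0.0019 with quantile scaling and -0.011 with equal medians. Leaving out 1 array gave medians of -0.063 to 0.085 for 4-OHT in PAX3-FKHR-ER cells, 0.053 to 0.15 in pK1 cells, -0.19 to -0.041 for the difference, 0.089 to 0.15 for constructs without 4-OHT and 0.0056 to 0.12 with it, and 0 calls. Single members were followed over the settings only for the 3 of each sign with the smallest p in each contrast. Among these, changes reversed in 5 cases with an array left out. CRYAB with 4-OHT in pK1 cells ranged from -0.94 to 0.011. Between constructs without 4-OHT DNAJB1 ranged from -0.25 to 0.037 and CRYAB from -0.60 to 0.36. The other 355 of these values with an array left out and all 344 under other settings kept their direction. Sizes of dim members such as HSPA2 moved with the pseudocount. Members outside this choice could turn. In replicates 2 and 3 alone HSPE1 with 4-OHT in PAX3-FKHR-ER cells went from -0.10 to 0.11. DNAJA2 with 4-OHT in pK1 cells went from 0.17 to -0.12, and HSP90AB1 in the difference from -0.13 to 0.12. The causes were not tested.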

Other observations

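Members without a probe set of their own can be read only together with other genes. The probe set annotated to both HSPA1A and HSPA1B, the stress-induced HSP70 genes, with the largest split by replicate had signals of 748 to 1148 on the 4 replicate 1 arrays and 7.19 to 22.9 on the 8 others. The filter of 36.7 was set on the mean over 12 arrays, so the probe set passed only through the replicate 1 arrays. It was chosen after its values were seen. Among the replicate 1 arrays it read 761 and 748 in PAX3-FKHR-ER cells with and without 4-OHT, and 1148 and 1113 in pK1 cells with and without it. Another probe set with the same annotation read 324 to 512 in replicate 1 and 176 to 569 in replicates 2 and 3. One shared with HSPA1L as well read 297 to 439 in replicate 1 and 44.8 to 318 elsewhere. Signals of the 3 probe sets annotated to HSPA8, the constitutive HSP70, and to small nucleolar RNA genes ran from 1945 to 7065, with ratios of replicate 1 to the other arrays of 1.10 to 1.22. TCP1, a TRiC subunit, lay on probe sets shared with a small nucleolar RNA gene, with signals of 267 to 2677. Between constructs without 4-OHT, PAX3-FKHR-ER minus pK1, the TCP1 probe sets differed by 0.65, 0.51 and 0.40 on the log2 scale. The HSPA8 ones differed by 0.22, 0.31 and 0.49, the last at an unadjusted p of 0.0175 (limma, 12 arrays). Probe sets naming HSPA1A and HSPA1B gave 0.03, -0.41 and -0.52, the first being the one with the largest split (SE 1.96). None of the shared probe sets passed the threshold. No gene was assigned to any of these probe sets.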
